A study of Mus musculus with 232 samples.

Results

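The 9 genes described here were Trim71, Hmga1, Hmga2, Igf2bp1, Igf2bp2, Igf2bp3, Arid3a, Arid3b and Gng5, which are known targets of the let-7 family of microRNAs (miRNAs) and are together called oncofetal because several of them are abundant in the embryo, fall silent in most adult tissues and return in tumours. They were taken by name as a fixed list, and they were 9 of the 42493 genes in the deposited files. All 9 passed a filter of at least 5 counts per cell on average, as did 11186 genes in all, which served as the background.

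Expression was measured in single mouse embryonic stem cells (ESCs), in 232 sequencing runs. Dgcr8-/- ESCs lack a protein needed to process nearly all miRNAs, so that a transfected mimic is close to the only miRNA of the cell. There were 60 Dgcr8-/- cells that were mock transfected (mock cells), 48 Dgcr8-/- cells given a let-7 mimic (let-7 cells), 58 Dgcr8-/- cells given a miR-294 mimic (miR-294 cells), and 16 wild type cells titled V6.5, the name of a mouse ESC line. The let-7 mimic is let-7i by the titles of the samples, let-7b by the series description and let-7c by the study's methods. All cells were grown in DMEM with 15% FBS, LIF and 2 inhibitors (2i, PD0325901 and CHIR99021) and were captured on a microfluidic chip. Mimics were transfected with the reagent Dharmafect 1, mock cells were treated alike without a mimic, and capture followed 24 h later. The study's methods do not state whether wild type cells received the reagent. Only 1 chip was used for a condition. A difference between chips therefore cannot be told apart from one between conditions, each condition was 1 sample, and no test between conditions was possible. The spread given is that over cells (SD, n = cells), which says nothing about what a repeat of the experiment would give.

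Cells held between 513521 and 3979274 counts. Levels are given as normalized counts, that is counts divided by a size factor of the cell, and ratios as the log2 ratio of the mean over the cells of a condition to that of mock cells. Dgcr8 itself was counted in 54 of 60 mock cells, 45 of 48 let-7 cells, 56 of 58 miR-294 cells and 16 of 16 wild type cells, with a mean normalized count of 51.5, 40.2, 66.6 and 118 in that order, and since the counts are per gene and not per exon they check the knockout label only in part. The summed level of 8 pluripotency markers was above 0 in every cell (lowest 924, in let-7 cells), and their median was 7099 in mock, 4900 in let-7, 7826 in miR-294 and 5914 in wild type cells. Whether this bears on the levels of the 9 genes was not tested. Of 8 fibroblast markers, Col1a2, Col3a1 and Lum were at 0 in all cells, and the median of the summed markers was 0 in each condition, with single cells reaching 350 in let-7 cells and at most 32.4 elsewhere. Of 11 markers of the germ layers, Gata6 and Sox17 were at 0 in all cells, and the median of their sum ranged from 4.83 in mock cells to 74.2 in wild type cells, with 21.5 in let-7 cells and a highest single cell at 1077, also in let-7 cells. Cells were not all independent. In 4 pairs of neighbouring numbers (3 pairs of let-7 cells, 1 of miR-294 cells) the log2 counts of 2 cells had r above 0.9, while no other pair of cells exceeded 0.715, so that 178 cells remained when each pair was counted once. Of the 50 cells with 2 runs, 48 had runs with r of at least 0.969, and 2 cells (1 let-7 cell and 1 wild type cell) had runs with r of 0.478 and 0.498. Before deposit the authors had also removed transfected cells in which the targets of the mimic were not lower, and 6 of the 9 genes (all but Hmga1, Hmga2 and Igf2bp1) belong to the array-based list of let-7 targets used for this, so for let-7 cells their levels are not independent of how the cells were kept.

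MiRNAs repress mRNAs by pairing through their seed (bases 2 to 8) with complementary sites, mostly in the 3′UTR. Let-7 was found as a timing switch of worm development, where lin-41, the orthologue of Trim71, is its classic target. In mouse ESCs let-7 is normally held back by Lin28a, and it accumulates on differentiation, whereas miR-294 belongs to the seed family that dominates the undifferentiated cell. The mature sequences (RefSeq, GRCm38.p6) are shown with the seed in capitals because the 3 let-7 names used for the mimic share it.

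mmu-let-7b-5p: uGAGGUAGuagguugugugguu
mmu-let-7c-5p: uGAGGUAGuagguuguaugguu
mmu-let-7i-5p: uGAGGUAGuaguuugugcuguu
mmu-miR-294-3p: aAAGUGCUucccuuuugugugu

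All 9 genes carried at least 1 copy of CTACCTC, the complement of the let-7 seed, in the 3′UTR of the coding transcript with the longest 3′UTR (Gencode M21, GRCm38, sense strand). Since such matches are among the features by which let-7 targets are found, this is a description of the list. The same letters were found in the 3′UTR of 10.6% of the 10304 background genes with such a transcript, whose median 3′UTR length was 1199 bases. Among the 9 genes the length ran from 1183 bases (Hmga1) to 5512 (Trim71) and 6337 (Igf2bp1). The background shares given here were not matched for length. Trim71, Hmga2 and Igf2bp1 had 4 copies each, Arid3a had 2, and Hmga1, Igf2bp2, Igf2bp3, Arid3b and Gng5 had 1. In Trim71 all 4 copies were followed by an A, which makes the longer match that favours repression. The seed complement of miR-294 (AGCACTT) was found in 18.2% of the same background genes, and among the 9 genes in Trim71 and Igf2bp1, with 1 copy each. The 4 copies in Trim71 and, for each other gene, 1 copy (one followed by an A where there was one, and the nearest to the stop codon) are printed with the 15 bases before and the 1 base after, the match in capitals.

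Trim71 site 1: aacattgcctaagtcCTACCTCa
Trim71 site 2: agtgataatttctatCTACCTCa
Trim71 site 3: tttagtatggattttCTACCTCa
Trim71 site 4: ttggcaaaaagttgtCTACCTCa
Hmga1: tcctctgttcacaaaCTACCTCt
Hmga2: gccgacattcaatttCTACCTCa
Igf2bp1: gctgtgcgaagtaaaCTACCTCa
Igf2bp2: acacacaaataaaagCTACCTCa
Igf2bp3: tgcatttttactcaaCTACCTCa
Arid3a: aaggcaagtttctttCTACCTCa
Arid3b: tatttcaataaagctCTACCTCt
Gng5: gtcagtccttaacatCTACCTCt

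The capitals lie, in GRCm38, at chr9:114512473-114512479, chr9:114512377-114512383, chr9:114509048-114509054 and chr9:114509022-114509028 for Trim71, and at chr17:27563292-27563298 for Hmga1, chr10:120364225-120364231 for Hmga2, chr11:95961779-95961785 for Igf2bp1, chr16:22059474-22059480 for Igf2bp2, chr6:49086788-49086794 for Igf2bp3, chr10:79953910-79953916 for Arid3a, chr9:57790362-57790368 for Arid3b and chr3:146505457-146505463 for Gng5. Hmga1, Arid3a and Gng5 are on the plus strand and the other 6 on the minus strand. The Hmga1 copy was in 6 of its 17 annotated coding transcripts and the Arid3b copy in 2 of 5, while every coding transcript of the other 7 genes held at least 1 copy. A match is a feature of the sequence and was not tested here as a site of binding.

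In let-7 cells 6 of the 9 genes had a mean normalized count at least 2-fold below that of mock cells, namely Trim71, Hmga2, Igf2bp1, Igf2bp2, Arid3b and Gng5, against 9.24% of all background genes, and 0 were at least 2-fold higher (18.9% of background genes). Their median log2 ratio to mock was -1.65, where the median of all background genes was 0.18. In miR-294 cells 0 of the 9 were at least 2-fold lower (20.4% of background genes) and 0 at least 2-fold higher (5.81%), with a median of 0.23 for the 9 genes and -0.28 for all genes. In wild type cells 2 of the 9 (Hmga2 and Igf2bp2) were at least 2-fold lower (32.1%) and 0 at least 2-fold higher (9.32%), with medians of -0.20 and -0.38. The 2 of 9 is no larger a share than in the background, and it became 0 of 9 with TMM factors (edgeR's depth scaling), CPM (counts scaled to the total of the cell) or FPKM (the deposited values per length and depth). These 3 comparisons share the mock cells. As 0 on the log2 scale is not the middle of the genes, a gene at 0 lay 0.38 above the median gene in wild type cells and 0.18 below it in let-7 cells. With the 4 pairs counted once, 6 genes were again at least 2-fold lower in let-7 cells and the median was -1.62, and without the 2 cells whose runs disagreed the values were 6 and -1.63. In the plot of log2 ratios the let-7 points lie below those of the other conditions for every gene but Arid3a.

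**Figure D1:**
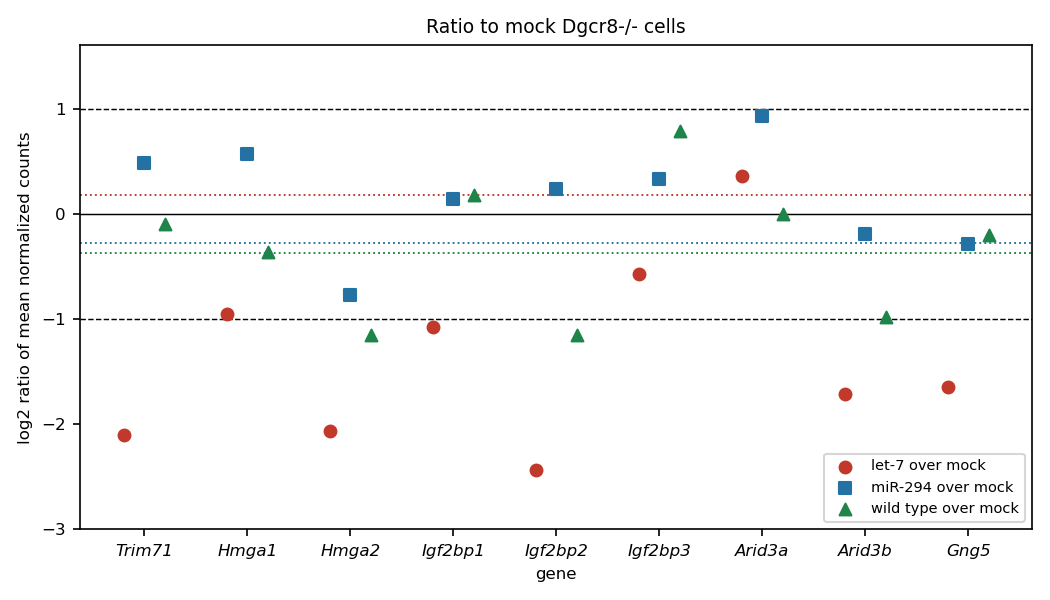
Log2 ratio of the mean normalized count to that of mock cells (y axis) for the 9 genes (x axis), with circles for let-7, squares for miR-294 and triangles for wild type cells. Dashed lines mark 2-fold, dotted lines the median of all 11186 background genes in each comparison. The let-7 points run from -2.44 for Igf2bp2 to 0.36 for Arid3a.

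Trim71 (ENSMUSG00000079259, chr9:114507133-114564369) encodes an RNA-binding ubiquitin ligase of the TRIM-NHL family that represses mRNAs of differentiation. Its normalized count in mock cells was 713 ± 398 (SD, n = 60 cells), with a lowest, median and highest cell at 128, 643 and 1954. In let-7 cells the mean was 165 ± 155 (SD, n = 48 cells) and the cells ran from 0 through a median of 121 to 524. All 48 let-7 cells lay below the median of mock cells, 24 of them below the lowest mock cell, and 41 of the 60 mock cells lay above the highest let-7 cell. The log2 ratio was -2.11, a 4.31-fold lower mean, and 2.36% of background genes had a lower ratio. In reads, 7681 were summed over let-7 cells (exact 95% Poisson interval 7510 to 7855) and 52315 over mock cells (51868 to 52765). These Poisson intervals take every read as an independent count. Since reads are not independent molecules, they do not cover the full counting error, and they leave out the spread over cells. The intervals on shares of cells below are binomial and take the cells of a condition as independent draws. Neither kind covers a difference between chips.

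The let-7 cells were unequal in Trim71. The gene was at 0 in 4 of them and below 10 normalized counts in 13, while 27 had 100 or more. No cell of another condition was below 10. In miR-294 cells the mean was 994 ± 456 (SD, n = 58 cells), from 152 through 948 to 2041, which is 0.48 above mock on the log2 scale and 0.76 above mock relative to the median gene. Wild type cells had 668 ± 232 (SD, n = 16 cells), from 424 through 601 to 1145, and a ratio to mock of -0.09, which turned to 0.047 with TMM factors, 0.089 with CPM and 0.092 with FPKM. Ordered by mean, the neighbours miR-294 and mock, and mock and wild type, differed by less than the SD over cells of either, and wild type and let-7 cells by more than both.

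**Figure D2:**
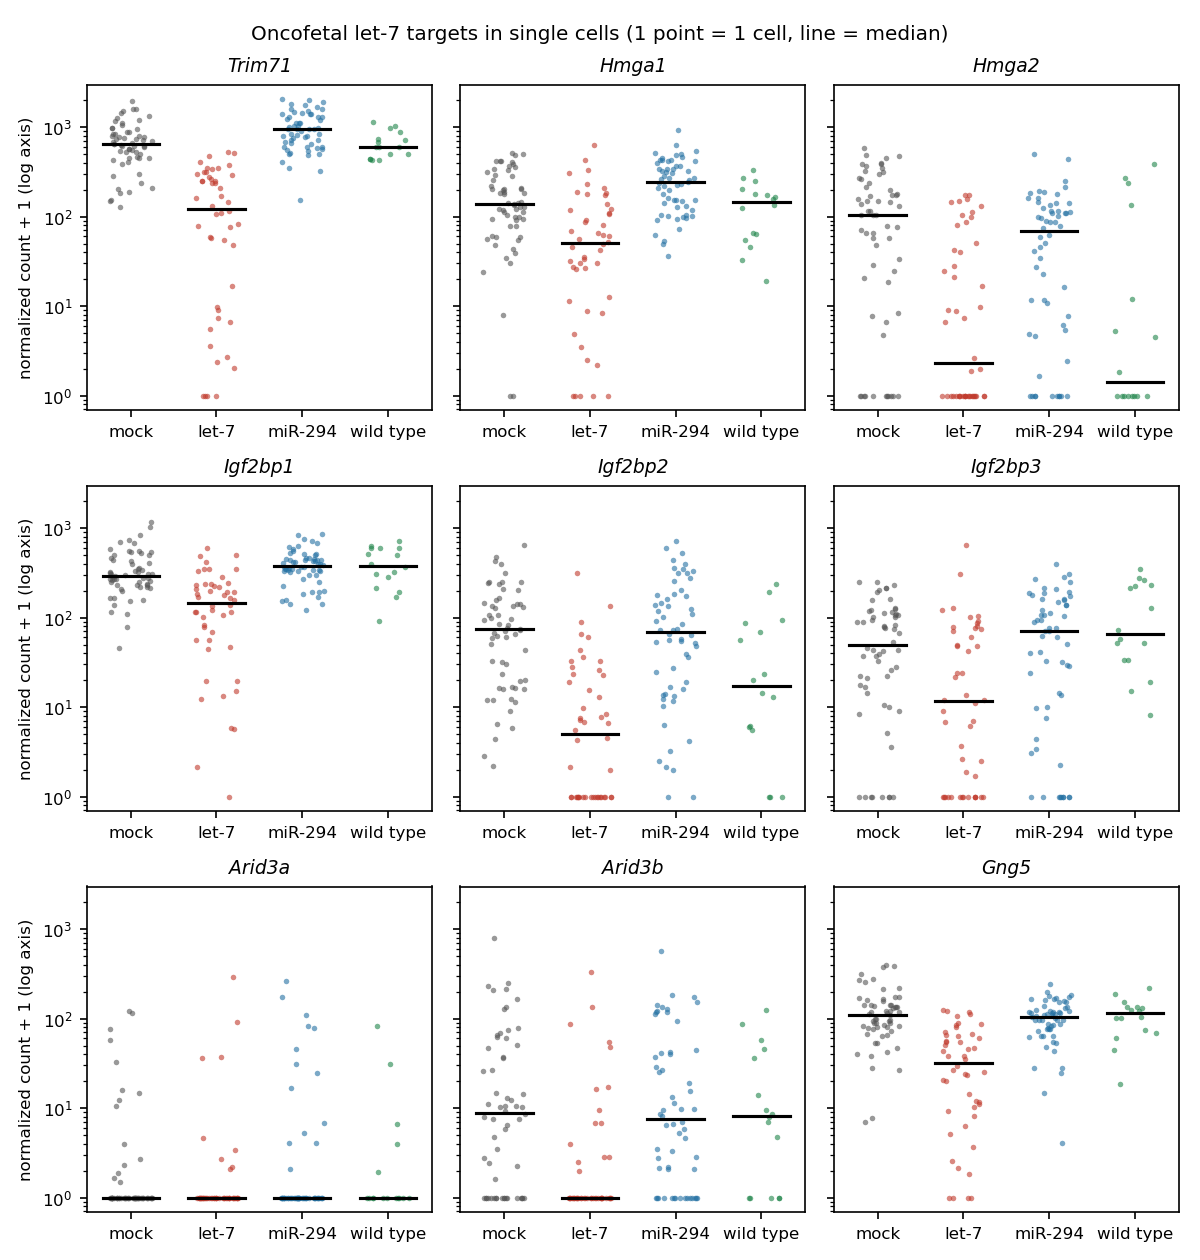
Normalized count plus 1 on a log axis (y) in each cell by condition (x), 1 panel per gene, with 1 point per cell and a black line at the median. Trim71 and Gng5 form a band in mock, miR-294 and wild type cells and spread downwards in let-7 cells, where the Trim71 median is 121 against 643 in mock cells, and Arid3a sits at 0 in most cells.

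Hmga1 and Hmga2 are small architectural proteins that bind AT-rich DNA and bend it. Hmga2 (ENSMUSG00000056758, chr10:120361275-120476469) had a mean of 146 ± 151 (SD, n = 60 cells) in mock cells, from 0 through 104 to 579, and of 34.7 ± 54.8 (SD, n = 48 cells) in let-7 cells, from 0 through 1.30 to 173. The log2 ratio was -2.07, a 4.20-fold lower mean, but the groups overlapped, since 7 let-7 cells were at or above the mock median and 15 mock cells were below 10. In miR-294 cells the mean was 85.2 ± 100 (SD, n = 58 cells), from 0 through 67.6 to 505, with a ratio of -0.77, which was the lowest of the 9 genes in that comparison. Wild type cells had 65.3 ± 123 (SD, n = 16 cells), from 0 through 0.42 to 390, and a ratio of -1.16. That wild type mean rested on few cells, as 11 of the 16 were below 10 and 4 were at 100 or more, and the ratio was -1.66 without the highest cell of each condition and -0.86 with CPM. Hmga2 and Arid3b had ratios below 0 in all 3 comparisons under every alternative that gave a value. Relative to the median gene, however, Arid3b was at 0.08 in miR-294 and -0.61 in wild type cells, and Hmga2 at -0.49 and -0.78.

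Hmga1 (ENSMUSG00000046711, chr17:27556497-27563674) had means of 180 ± 138 in mock cells (SD, n = 60 cells), 93.1 ± 124 in let-7 cells (n = 48), 266 ± 172 in miR-294 cells (n = 58) and 140 ± 91.2 in wild type cells (n = 16). Its median cell had 136, 49.8, 241 and 145 in that order. The log2 ratio in let-7 cells was -0.95, just short of 2-fold, and it ranged from -1.45 to -0.91 over the alternatives, so the side of the 2-fold line depends on the processing. The value is also uncertain because the gene has a near-identical copy, Hmga1b, between which RSEM divides the reads that fit both. The deposited count of Hmga1 was not whole in 80.2% of runs, and Hmga1b had a mean of 80.6 in mock and 32.9 in let-7 cells. Summed, the 2 genes had 261 ± 185 normalized counts in mock cells and 126 ± 167 in let-7 cells, a log2 ratio of -1.05, and 423 ± 246 in miR-294 cells, a ratio of 0.70.

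Igf2bp1, Igf2bp2 and Igf2bp3 encode cytoplasmic RNA-binding proteins that bind and stabilise mRNAs such as those of Igf2, Actb and Myc. Igf2bp2 (ENSMUSG00000033581, chr16:22059009-22163299) had the lowest ratio of the 9 genes in let-7 cells. Its mean was 114 ± 129 (SD, n = 60 cells) in mock cells, from 1.22 through 73.4 to 643, and 21 ± 50.8 (SD, n = 48 cells) in let-7 cells, from 0 through 4.02 to 317. The log2 ratio was -2.44, a 5.42-fold lower mean, with 1.78% of background genes lower. It was counted in 60 of 60 mock cells (100%, exact binomial 95% interval 94.0 to 100) and in 28 of 48 let-7 cells (58.3%, 43.2 to 72.4). When each cell was thinned to 500000 counts, a depth every cell reached, the shares were 95% in mock and 47.9% in let-7 cells. In miR-294 cells the mean was 133 ± 162 (SD, n = 58 cells) and the ratio 0.23, although the median cell (67.9) was slightly below that of mock. Wild type cells had 51 ± 71.7 (SD, n = 16 cells), from 0 through 16.2 to 238, and a ratio of -1.16 that became -0.86 with the deposited FPKM or with CPM.

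Igf2bp1 (ENSMUSG00000013415, chr11:95957163-96005940) had 357 ± 216 normalized counts in mock cells (SD, n = 60 cells), from 44.4 through 293 to 1163, and 169 ± 142 in let-7 cells (SD, n = 48 cells), from 0 through 146 to 595. The ratio was -1.08, a 2.11-fold lower mean, with 40 of 48 let-7 cells below the mock median. This call was near its limit, and the ratio was -0.98 when counts were summed over cells and -0.66 with FPKM. It was counted in 47 of 48 let-7 cells and in 60 of 60 mock cells, so that the 2 conditions differed in its level and hardly in the share of cells with a count. In miR-294 cells (395 ± 169, n = 58 cells) and wild type cells (404 ± 190, n = 16 cells) the ratios were 0.14 and 0.18.

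Igf2bp3 (ENSMUSG00000029814, chr6:49085223-49214957) had a mean of 72.9 ± 69.8 in mock cells (SD, n = 60 cells) and of 49 ± 104 in let-7 cells (SD, n = 48 cells), a ratio of -0.57, within the SD over cells of either. The median cell had 48.2 in mock and 10.6 in let-7 cells, a log2 ratio of -2.19, and 2 let-7 cells lay above the highest mock cell (248), the higher of them at 648. Without the highest cell of each condition the ratio of the means was -0.95, and with counts summed over cells it was -1.08. It was the member with the highest ratio in wild type cells, 0.78 (126 ± 113, n = 16 cells, from 7.07 through 63.8 to 346), and in miR-294 cells it was 0.33 (91.4 ± 93.3, n = 58 cells).

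Arid3a and Arid3b are transcription factors that bind AT-rich DNA through the ARID domain. Arid3b (ENSMUSG00000004661, chr9:57790353-57836793) had 48.4 ± 117 in mock cells (SD, n = 60 cells), from 0 through 7.88 to 801, and 14.8 ± 52 in let-7 cells (SD, n = 48 cells), from 0 through 0 to 326. The log2 ratio was -1.71, a 3.28-fold lower mean, and -2.13 without the highest cell of each condition. It was counted in 42 of 60 mock cells (exact interval of the share 56.8% to 81.2%) and in 15 of 48 let-7 cells (31.3%, 18.7% to 46.3%). At 500000 counts the shares were 65% of mock and 22.9% of let-7 cells. In the mock and let-7 cells that counted it the mean was 69.1 and 47.2, and the median 13.6 and 8.62. At such low counts the share of cells with a count depends on the level, so the 2 cannot be told apart. The shares in miR-294 and wild type cells were 74.1% and 68.8%, with ratios of -0.20 and -0.98. The wild type ratio was -0.12 when the median cells (7.24 and 7.88 in mock) were compared.

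Arid3a (ENSMUSG00000019564, chr10:79927043-79955018) was the exception in let-7 cells. It was at 0 in most cells of every condition and was counted in 15 of 60 mock cells, 9 of 48 let-7 cells (18.8%), 14 of 58 miR-294 cells (24.1%) and 5 of 16 wild type cells (31.3%), with intervals that overlapped. The mean was 7.55 ± 24.0 in mock cells and 9.69 ± 44.3 in let-7 cells (SD, n = 60 and 48 cells), and the ratio of 0.36 rested on 1 let-7 cell with 293 normalized counts, since it was -0.63 without the highest cell of each condition and -0.42 with FPKM. The mean in miR-294 cells was 14.4 ± 44.8 (SD, n = 58 cells), a ratio of 0.93 that passed 1 with TMM factors (1.19) or CPM (1.30). Wild type cells had 7.54 ± 21 (SD, n = 16 cells), and without the highest cell of each condition the ratio was -1.11. No direction of Arid3a could be read at this depth.

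**Figure D3:**
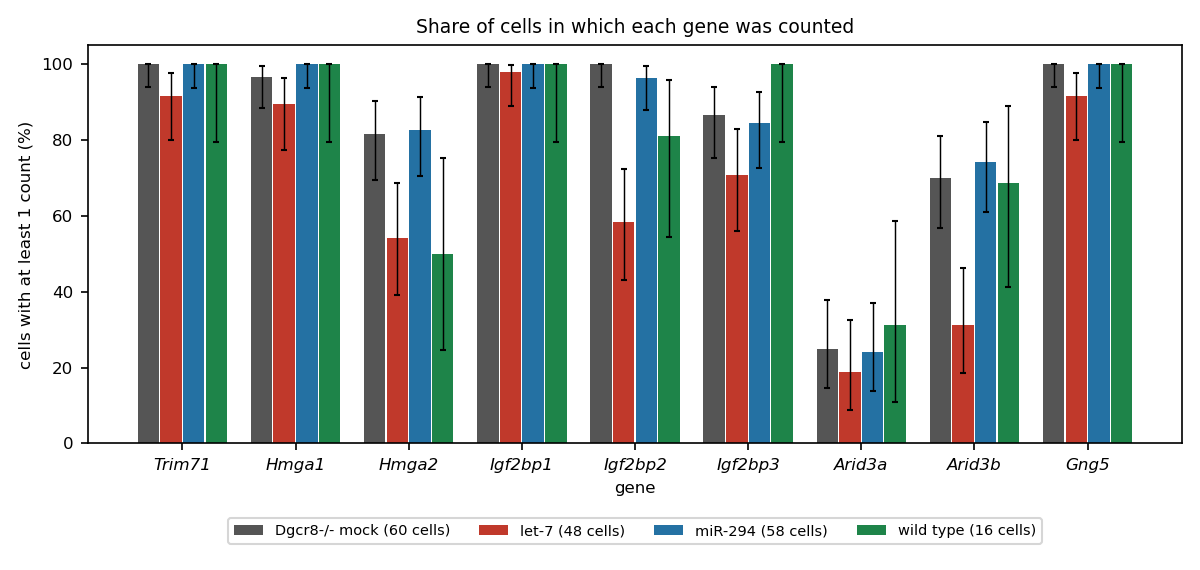
Share of cells with at least 1 count (y axis, in percent) for each gene (x axis) in each condition. Bars carry exact binomial 95% intervals, which take the cells of 1 sample as independent draws. The intervals are no test between conditions. For Hmga2, Igf2bp2 and Arid3b the bar of let-7 cells (54.2%, 58.3% and 31.3%) lies below that of mock cells (81.7%, 100% and 70%). How often this holds for background genes was not counted. For Arid3a all 4 bars are at or below 31.3%.

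Gng5 (ENSMUSG00000068523, chr3:146499807-146505572) encodes a γ subunit of heterotrimeric G proteins, which forms with a β subunit the dimer that carries signals from receptors. It had 127 ± 87 in mock cells (SD, n = 60 cells), from 6.03 through 110 to 391, and 40.5 ± 36.9 in let-7 cells (SD, n = 48 cells), from 0 through 31.2 to 124. The ratio was -1.65, a 3.14-fold lower mean, with 44 of 48 let-7 cells below the mock median and 24 of 60 mock cells above the highest let-7 cell. In miR-294 cells it was 104 ± 48.3 (SD, n = 58 cells) with a ratio of -0.29, which was 0.01 below the median gene, and in wild type cells 111 ± 52.3 (SD, n = 16 cells) with a ratio of -0.20, whose sign turned with CPM (0.029), FPKM (0.0094) and the median over cells (0.042). Its mean in let-7 cells was below that of miR-294 cells, the next in order, by more than the SD over cells of either, as for Trim71. Of the 27 pairs of neighbouring conditions over the 9 genes, these 2 were the only ones with such a gap. How often background genes had one was not counted, so the gap cannot be called particular to these genes. The pseudogene Gng5-ps never had more than 1 count in a cell.

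Compared per length, in FPKM, the order of the genes in mock cells differed from that of the counts. Gng5 led with 186 ± 111 FPKM (SD, n = 60 cells), followed by Hmga1 with 85.8 ± 68.3, Trim71 with 51.8 ± 29.6, Igf2bp1 with 33.1 ± 22.4, Hmga2 with 26.2 ± 27.1, Igf2bp2 with 22.1 ± 22.8, Igf2bp3 with 11.6 ± 11.4, Arid3b with 8.84 ± 21.1 and Arid3a with 1.62 ± 6.13. From Trim71 down to Arid3b neighbours differed by less than the SD over cells of either, and nowhere in the order did they differ by more than both. In let-7 cells Gng5 was at 55.6 ± 51 and Trim71 at 10.9 ± 9.85 FPKM (SD, n = 48 cells).

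The sum of the 9 normalized counts in a cell, which is not per length and of which Trim71 made up 40.4% in mock cells, had a lowest, median and highest cell at 683, 1739 and 3175 in mock cells and at 82, 575 and 1623 in let-7 cells. Of the 48 let-7 cells, 32 were below the lowest mock cell and all 48 below the median of mock cells, and 34 of 60 mock cells were above the highest let-7 cell. In miR-294 cells the sum ran from 857 through 2103 to 3659, and in wild type cells from 769 through 1620 to 2380. Of these, 4 of 58 miR-294 cells and 0 of 16 wild type cells were above the highest mock cell, and 0 were below the lowest. The share of Trim71 in the sum was 27.7% in let-7 cells and 46.8% in miR-294 cells.

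**Figure D4:**
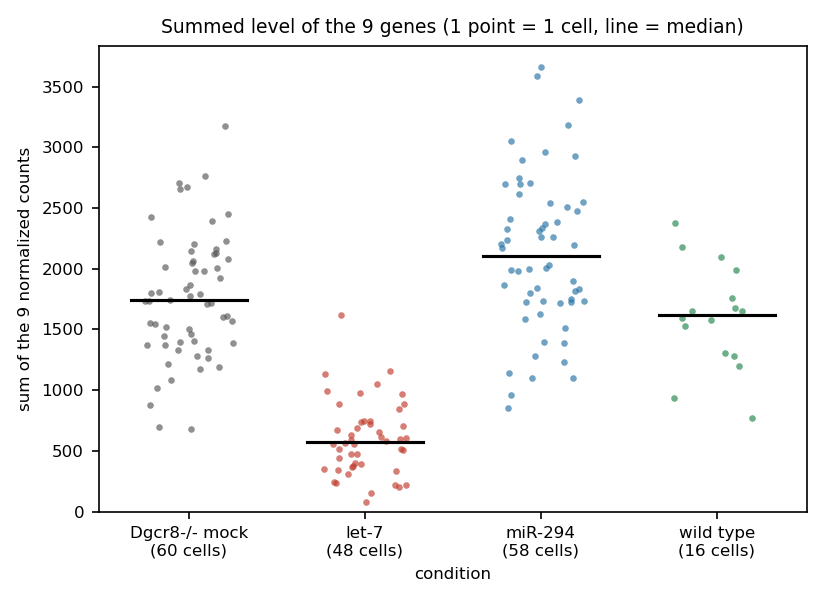
Sum of the 9 normalized counts (y axis) in each cell by condition (x axis), with 1 point per cell and a black line at the median. The let-7 cells have a median of 575 and 32 of 48 lie below 683, the lowest mock cell, while miR-294 and wild type cells overlap with mock cells over most of their range.

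Among cells of 1 condition the 9 genes varied largely apart from each other. Over the 36 pairs of genes the Spearman correlation of normalized counts had a median of 0.03 in mock (60 cells), 0.00 in let-7 (48 cells) and 0.05 in miR-294 cells (58 cells), and in these 3 conditions it lay between -0.31 and 0.31 for every pair. In the 16 wild type cells the median was 0.10 and 8 pairs were above 0.3, the highest being Hmga2 with Igf2bp3 (0.68). The cells of a condition share a chip and the genes share a cell's depth, and in counts as sparse as those of Arid3a such values are only descriptive. The sum of the 9 genes had a Spearman correlation of -0.07 with the total count in let-7 cells and of 0.13 in mock cells. Leaving out Arid3a, whose mock median was 0, a let-7 cell had a median of 7 of the 8 genes below the respective mock median (from 5 to 8), a mock cell 4 (from 1 to 8), a miR-294 cell 3 and a wild type cell 4. At least 6 of the 8 were below it in 43 of 48 let-7 cells, 11 of 60 mock cells, 8 of 58 miR-294 cells and 2 of 16 wild type cells. The 4 in mock cells follows from cutting at their own medians. Several of the 8 genes belong to the list used to keep let-7 cells, and background genes were not counted in this way.

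The ratio in let-7 cells was then set beside the number of let-7 seed matches. Of all background genes, the 9210 with 0 matches had a median log2 ratio of 0.20 (quartiles -0.30 and 0.76), the 961 with 1 match -0.00 (-0.67 and 0.61), the 112 with 2 matches -0.41 (-1.09 and 0.11), and the 21 with 3 or more -0.33 (-1.40 and 0.27). At least 2-fold lower were 8.17%, 17.2%, 29.5% and 33.3% of them. Each group with a match includes the oncofetal targets that fall in it. Among those targets with 1 match the ratio ran from -2.44 (Igf2bp2) to -0.57 (Igf2bp3). Those with 4 matches had -2.11 (Trim71), -2.07 (Hmga2) and -1.08 (Igf2bp1), and Arid3a with 2 matches had 0.36. Within the 9 genes the number of these full seed matches did not order the ratios. Shorter 3′UTR matches, which lack the pairing to base 8 and are followed by an A, were left out of these numbers. Arid3b had 4 of them, Hmga2 3, Trim71 and Arid3a 2 each, and Igf2bp1 and Igf2bp2 1 each. Hmga1, Igf2bp3 and Gng5 had 0. Matches upstream of the 3′UTR were left out as well. Trim71 and Igf2bp1, which hold the miR-294 match, had ratios of 0.48 and 0.14 in miR-294 cells, where the 1509 background genes with 1 such match had a median of -0.47.

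**Figure D5:**
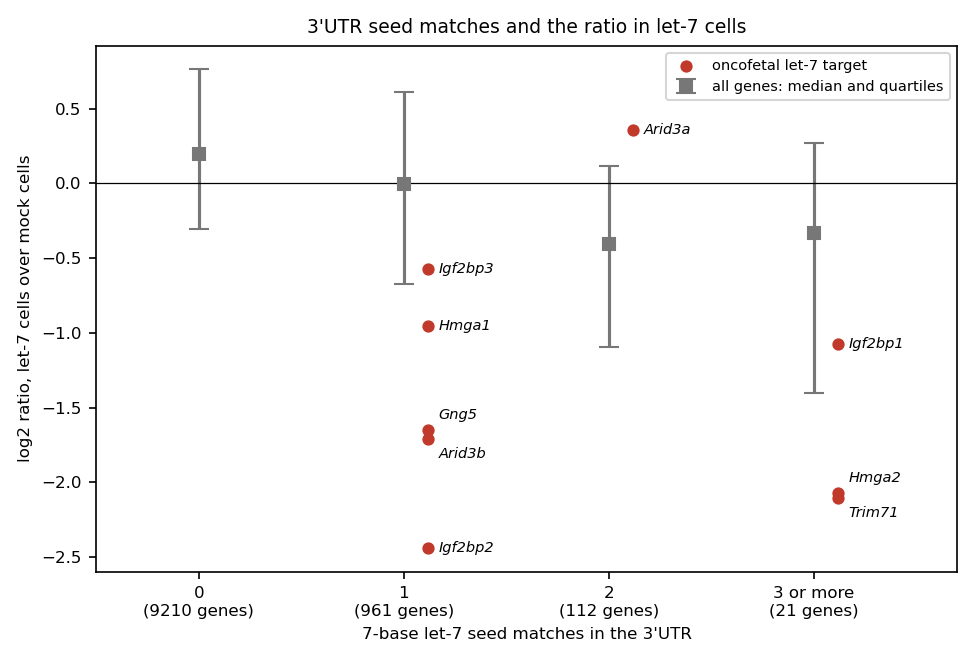
Log2 ratio of let-7 to mock cells (y axis) against the number of 7-base let-7 seed matches in the 3′UTR (x axis). Grey squares with bars are the median and quartiles of all background genes, and red points are the 9 oncofetal targets. The grey medians are 0.20, -0.00, -0.41 and -0.33 from 0 to 3 or more matches, and 8 of the 9 red points lie below the median of their group.

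Other genes known as let-7 targets were less uniform. Of 31 listed, 29 passed the count filter, and in let-7 cells 9 were at least 2-fold lower (9.24% of background genes) and 8 at least 2-fold higher (18.9%), with a median log2 ratio of -0.21. The 6 furthest from mock were Fign (3.96), Mycn (-2.83), Sall4 (-2.46), Insr (2.33), Rrm2 (-2.31) and Dna2 (-2.25). A few cells carried the values of Fign, counted in 6 of 48 let-7 and 6 of 60 mock cells, and of Insr, counted in 8 and 9. Sall4, a pluripotency factor, had a mean of 201 in let-7 cells and 1104 in mock cells, and the ribonucleotide reductase subunit Rrm2 155 and 770. The miRNA-processing inhibitors Lin28a and Lin28b, which act on let-7 itself, were low in mock cells (1.76 and 17 normalized counts). Their ratios in let-7 cells were -0.17 and -0.57. Lin28a was counted in only 3 of 60 mock and 1 of 48 let-7 cells, so no direction can be read from its ratio. Lin28b was counted in 25 and 14. The mean of Lin28a was 38.8 in miR-294 and 260 in wild type cells. In miR-294 cells 2 of the 29 were lower (20.4% of background genes) and 2 higher (5.81%), and in wild type cells 7 were lower (32.1%) and 6 higher (9.32%), so that in both the share of the list that was lower was below that of all genes.

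Relatives of the 9 genes in their own families were also listed. Of 25, 19 passed the filter, and in let-7 cells 0 were at least 2-fold lower (9.24% of background genes) and 3 at least 2-fold higher (18.9%, a like share), namely the G protein subunits Gng7 (1.33) and Gng12 (1.16) and the TRIM-NHL gene Trim3 (1.01), with a median of 0.43 for the 19. Gng7 was counted in 5 of 48 let-7 and 4 of 60 mock cells. In miR-294 cells 2 were lower (20.4%) and 1 higher (5.81%), and in wild type cells 5 (32.1%) and 2 (9.32%). Of 8 RNAs that Igf2bp or Trim71 proteins are known to bind or regulate, 5 passed the filter. In let-7 cells 0 of the 5 were at least 2-fold lower (9.24% of background genes). At least 2-fold higher were 2 (18.9%), Egr1 (5.30) and Mbnl1 (1.07). Egr1 was counted in only 2 of 60 mock cells (3.69 ± 28.3 normalized counts) and in 16 of 48 let-7 cells. Its ratios, which rest on those 2 mock cells, were 2.45 in miR-294 cells and 5.44 in wild type cells. Whether Trim71 or the Igf2bp genes bear on these RNAs was not tested. Of 8 pluripotency markers 1, Nanog (-1.59), was at least 2-fold lower in let-7 cells (9.24% of background genes). The 8 ratios ran from -1.59 to -0.18. Their median was -0.64, where that of all background genes was 0.18. Of 4 germ layer markers that passed the filter, Gata4 (2.84) and Otx2 (1.43) were at least 2-fold higher (18.9% of background genes), while Eomes had 0.55 and Mixl1 -0.96. Gata4 was counted in 7 of 48 let-7 and 1 of 60 mock cells and Otx2 in 8 and 12. Whether these markers bear on the 9 genes was not tested.

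Genes whose 3 log2 ratios lay near to the medians of the 9 genes, among 5322 other genes averaging 50 or more counts and by Euclidean distance over the 3 comparisons, included Gart (distance 0.12, the nearest), Got1 (0.25), Naa40 (0.29) and Gm14820 (0.30). Gart, an enzyme of purine synthesis, had ratios of -1.70 in let-7, 0.23 in miR-294 and -0.09 in wild type cells, with means of 128, 488 and 391 beside 416 in mock cells. In the list of 171 let-7 targets from arrays, of which 169 passed the filter and had a median ratio of -0.95 in let-7 cells, Igf2bp2 was in place 17 from the lowest, Trim71 27, Arid3b 37, Gng5 43, Igf2bp3 112 and Arid3a 161. As that list served to keep or remove cells, these places are a description only.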

How the data were processed

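Single cells were captured on a Fluidigm C1 chip and libraries made with the Nextera XT kit. Per the labels and methods, the authors aligned reads to mouse transcripts (Gencode M4) with RSEM 1.2.19 and deposited, for each run, a raw expected count per gene and an FPKM, in which they had corrected for gene length and depth. They had removed cells with few reads and transfected cells whose targets were not lower.

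Groups came from the genotype labels. For each cell the expected counts of its runs were added, rounded and divided by size factors computed as in DESeq on 862 genes with a count in all cells (Python 3.11.15, numpy 2.4.6, pandas 2.3.3, scipy 1.17.1). The total per cell was 513521 to 3979274. The background was the 11186 of 42493 genes that averaged 5 or more counts. Means over cells were compared as log2 ratios to mock, and 2-fold was used as the limit. With 1 chip a condition no test was run. Symbols (41674 matched), positions and 3′UTRs came from Gencode M21 (GRCm38) and miRNAs from RefSeq. Ratios and motif counts were tested on simulated data. Alternatives were TMM factors (edgeR 4.0.16, R 4.3.3), CPM, FPKM, other averages, the first run alone, near-identical cells counted once and, added after seeing the data, leaving out cells with disagreeing runs.

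Members and gene lists were chosen with earlier results of these data known. Named were all 9 members, from each list at most 6 genes at least 2-fold different in let-7 cells, Lin28a, Lin28b, Sall4, Dgcr8 and the 5 genes nearest to the members' medians, of which 1 is not reported here. Eomes, Mixl1, markers at 0 in all cells, Hmga1b and Gng5-ps were named after their values were seen.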

Additional observations from a re-analysis of the deposited data

How the results depend on the processing

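Every value rests on 1 chip per condition, and depth limits Arid3a and Arid3b, which were at 0 in many cells. No paired analysis was possible because there was no test and the replicate numbers in the labels mark sequencing runs of a cell. Of 88 log2 ratios of the 9 genes in let-7 cells under 10 alternatives, 86 kept their sign, and the other 2 belonged to Arid3a. In miR-294 cells 87 of 89 kept it (not Igf2bp2 and Gng5, under 1 alternative each) and in wild type cells 78 of 89 (not Arid3a, Trim71, Gng5 and Hmga1 under some). The median ratio of the 9 genes in let-7 cells was -1.75 with TMM factors, -1.73 with CPM and -1.46 with counts summed over cells. In miR-294 cells it was 0.36 with TMM factors, 0.44 with CPM, 0.51 with FPKM, 0.15 with the first run, 0.19 with near-identical cells counted once and 0.19 without the 3 cells titled MIR_294, which differ from the others in the form of their titles. In wild type cells it was -0.013, 0.029 and 0.0094 with the first 3 of these and -0.45 without the highest cell of each condition. At a limit of 4-fold, 3 genes were lower in let-7 cells (2.66% of background genes) and 0 in wild type cells (17.6%). At 1.5-fold, 7 were lower in let-7 cells (17.1%), 1 was lower (35.1%) and 1 higher (11.7%) in miR-294 cells, and 3 were lower (42.8%) and 1 higher (17.4%) in wild type cells. Arid3a (1 gene) was at least 2-fold higher in miR-294 cells with TMM factors, CPM, summed counts and without the cells titled MIR_294. In wild type cells 0 genes were at least 2-fold lower with TMM factors, CPM and FPKM. The share of background genes at least 2-fold lower in let-7 cells was 5.99% among those averaging 50 or more counts, 15.5% with the median over cells and 19.2% among all genes with a count. The causes of these differences were not tested.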
